A study of Mus musculus with 24 samples.

Results

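The BMAL1 complex is the activating arm of the circadian clock, and its 4 genes Arntl, Arntl2, Clock and Npas2 were followed in innate lymphoid cells of the mouse small intestine. The genes were taken by name from a table of 55487 genes, and 3 of the 4 had enough counts to be among the 21286 genes tested. Innate lymphoid cells (ILCs) are tissue lymphocytes that carry no rearranged antigen receptor. They were sorted from the lamina propria of mice aged 8 to 12 weeks. DKO mice carried floxed alleles of both Nr1d1 and Nr1d2 and a Cre recombinase driven by Vav1, a gene active throughout the blood lineages. WT mice were littermates with the same floxed alleles and served as controls, so the floxed alleles are common to all groups and the Cre differs. The floxed genes encode the REV-ERB receptors α and β, which bind heme and repress transcription. Cells were sorted into 4 populations with the labels ILC1, NKp46, CCR6 and DN. ILC1 make interferon gamma. NKp46 is a receptor of natural killer cells and of a subset of ILC3, the ILCs that make interleukin 22. CCR6 is a chemokine receptor of ILC3 that resemble lymphoid tissue inducer cells. The labels do not spell out DN. Each population had 3 DKO and 3 WT libraries, 24 in all. The sources used here do not give the time of day of tissue collection, the sort gates or whether each library had its own animals, and p-values therefore cover only the spread of these libraries, which may be technical.

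In the mammalian clock, BMAL1 (encoded by Arntl) pairs with CLOCK or with its close relative NPAS2, and the pair binds E-box elements through basic helix-loop-helix domains and activates its targets. BMAL2 (encoded by Arntl2) is a paralog of BMAL1 that can also pair with CLOCK. The targets include the Per and Cry genes, whose proteins inhibit the pair, and Nr1d1 and Nr1d2. REV-ERBs in turn repress Arntl, Clock and Npas2, and they compete with the activating ROR receptors for shared elements built around the hexamer AGGTCA.

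Arntl lies on chromosome 7 of GRCm38 (113207465 to 113314126, plus strand), Arntl2 on chromosome 6 (146796055 to 146833529, plus strand), Clock on chromosome 5 (76209868 to 76304792, minus strand) and Npas2 on chromosome 1 (39193731 to 39363236, plus strand). All 4 are protein-coding genes. The one gene that shares exon bases with a member is Gm45355, an antisense transcript with 33 bases in common with Arntl. Gm45355 had between 0 and 80 counts per library, and Arntl had at least 314.

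The Arntl start region carries the letters of a REV-ERB and ROR element, and that stretch is shown because Arntl is the textbook target of both receptor families. The hexamer preceded by T, TAGGTCA, occurs once near the Arntl start, within the element AAAGTAGGTCA, which begins 72 bases downstream of the first RefSeq start. A copy with 1 mismatch begins 36 bases downstream of that start. Capitals mark the 11 bases of the element and of its copy, and the substitution from element to copy is C10T, with positions counted from 1 at the 5′ end of the capitals. The last sequence is the 250 bases before the RefSeq start of Npas2, shown because Npas2 had the largest DKO to WT difference of the 4 genes, and it holds no capitals because no motif was found in it. Sequences and starts are from RefSeq, GRCm38.p6.
Arntl copy, chr7:113207492-113207521, plus strand: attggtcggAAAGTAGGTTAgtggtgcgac
Arntl element, chr7:113207528-113207557, plus strand: ggaaggcagAAAGTAGGTCAgggacggagg
Npas2, chr1:39194022-39194271, plus strand: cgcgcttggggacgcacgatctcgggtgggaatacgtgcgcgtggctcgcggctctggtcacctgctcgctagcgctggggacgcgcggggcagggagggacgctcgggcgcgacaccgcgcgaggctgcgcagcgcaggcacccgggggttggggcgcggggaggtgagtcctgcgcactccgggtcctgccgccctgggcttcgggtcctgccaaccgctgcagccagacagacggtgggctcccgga

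Windows from 250 bases before to 50 bases after each RefSeq start were searched on both strands for AGGTCA, for TAGGTCA, which lies within it, and for the E-box CACGTG. The 4 genes had 7 such windows. AGGTCA was found in 1 of the Arntl windows and, on the opposite strand, in 1 of the Clock windows. It occurs in 16.3% of all 32851 windows. TAGGTCA was found in the Arntl window alone, and occurs in 2.61% of all windows. The Npas2 and Arntl2 windows held none of the 3 motifs, and no member window held the E-box, which occurs in 7.15% of all windows. The whole 11-base element occurs in 7 windows of 7 genes, 0.0213% of all. The element was read from Arntl itself, so this share is a description. These matches say which letters lie in these windows and nothing of what binds there.

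Total counts ran from 12.8 to 84.4 M per library (M, 1e+06 counts). The second WT ILC1 library stood apart: 84.1% of its counts fell on protein-coding genes, against 91.6 to 94.9% in the other 23 libraries, 11.1% fell on ribosomal RNA, and its 7 myeloid markers summed to 582 CPM. CPM are counts per 1e+06 counts after scaling by the trimmed mean of M values. The myeloid markers summed to 74.1 to 582 CPM in WT ILC1 and 20.2 to 50.1 CPM in DKO ILC1, with 0 of the 7 called. Their part in the ILC1 values of the members was not tested. The ILC1 and natural killer cell markers (Tbx21, Eomes, Ncr1, Klrb1c, Prf1 and Gzma) summed to 2595 to 3200 CPM in DKO ILC1 and 2137 to 3913 CPM in WT ILC1. The sums of 5 ILC3 markers (Il23r, Il1r1, Il22, Il7r and Kit) were lower in DKO in every population, with no overlap. They were 1620 to 1789 CPM in DKO NKp46 and 2845 to 3552 CPM in WT NKp46. In CCR6 they were 2955 to 3264 CPM in DKO and 4667 to 6141 CPM in WT. In DN they were 2176 to 2641 CPM in DKO and 2777 to 3049 CPM in WT, and in ILC1 809 to 842 and 984 to 1292 CPM. The 5 genes did not all go this way. Mean Il1r1 was higher in DKO ILC1 (14.6 CPM, 7.95 in WT), DKO CCR6 (322, 300 in WT) and DKO DN (202, 136 in WT). Mean Kit in DN was 369 CPM in DKO and 371 CPM in WT. In NKp46 cells the ILC1 and natural killer cell markers summed to 680 to 843 CPM in DKO and 967 to 1222 CPM in WT. Of these markers 0 of 6 were called there. Mean Ncr1 was 464 CPM in DKO NKp46 and 824 CPM in WT NKp46. Klrb1c was lower too, while Tbx21, Eomes, Prf1 and Gzma were higher in DKO NKp46. The part of these marker differences in the member values was not tested. Counts over the whole genes of Nr1d1 and Nr1d2 were higher in DKO, by 0.82 to 2.34 on the log2 scale for Nr1d1. The sources used here do not name the deleted exons, so these totals do not check the genotype.

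Npas2, the alternative partner of BMAL1, was the member that differed most between genotypes. In ILC1 it had 22.4, 19.2 and 32.2 CPM in the 3 DKO libraries, against 0.774, 10.8 and 4.88 CPM in the WT libraries. In NKp46 cells it had 54.8, 69.4 and 61.7 CPM in DKO, against 12.5, 9.94 and 10.02 CPM in WT. In every population all DKO libraries were above all WT libraries, as were those of 6.53% of all tested genes in ILC1, 9.76% of genes in NKp46, 11.5% in CCR6 and 11.2% in DN. In CCR6 cells the values were 62.4, 67.2 and 87.95 CPM in DKO and 7.88, 15.2 and 12.4 CPM in WT. In DN cells they were 58.3, 66.9 and 60.5 CPM in DKO and 8.72, 9.32 and 7.22 CPM in WT. Beside the CCR6 values, the 7 epithelial markers summed to 17.7 to 37.0 CPM in DKO CCR6 and 4.87 to 9.50 CPM in WT CCR6 (1 of 7 called higher). Among them Krt18 averaged 16.5 CPM in DKO CCR6 and 3.24 CPM in WT CCR6, and Krt8 8.04 and 3.15 CPM. The others averaged 0.162 CPM or less in DKO CCR6. Of these, Epcam and Cdh1 were higher than in WT CCR6, and Krt19, Vil1 and Fabp2 lower. There the 6 ILC1 and natural killer cell markers summed to 12.4 to 15.1 CPM in DKO CCR6 and 26.7 to 38.2 CPM in WT CCR6 (3 of 6 called lower, and Gzma at 0 counts in DKO CCR6), and the B and plasma cell markers to 40.6 to 55.8 CPM in DKO CCR6 and 99.2 to 196 CPM in WT CCR6 (1 of 5 tested called lower). Their part in the CCR6 values of Npas2 and of the other clock genes was not tested. The lowest DKO library outside ILC1 had 54.8 CPM and the highest WT library of any population 15.2 CPM. Bulk values of this kind cannot tell apart fewer cells that express a gene from less RNA per cell.

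Npas2 passed the test in each population, with adjusted p between 7.0e-04, in DN cells, and 0.019, in ILC1. A gene is called here at an adjusted p under 0.05 in edgeR's quasi-likelihood test, and 0.78% of all tested genes were called higher in DKO ILC1, 1.99% in DKO NKp46, 1.93% in DKO CCR6 and 1.49% in DKO DN cells. Npas2 is 1 of 59 genes, 0.277% of those tested, that were called higher in DKO in all 4 populations. The mean of the 4 effects was a log2 fold change of 2.56 ± 0.24 (SE; adjusted p = 6.3e-08), a 5.90-fold higher level in DKO. A difference of the effect among the populations was not called in the joint test (adjusted p = 0.96), in which 1.37% of genes were called, and the log2 effect in ILC1 minus that in CCR6 cells was -0.38, with a 95% interval of -1.72 to 0.95. The ILC1 call is the weakest: the effect there was 2.23 ± 0.48, it was 1.98 with an adjusted p of 0.091 without the third DKO ILC1 library, 2.18 ± 0.75 with an adjusted p of 0.87 when the 6 ILC1 libraries were fitted alone, and 3.09 with an adjusted p of 4.7e-04 without the second WT ILC1 library.

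**Figure D1:**
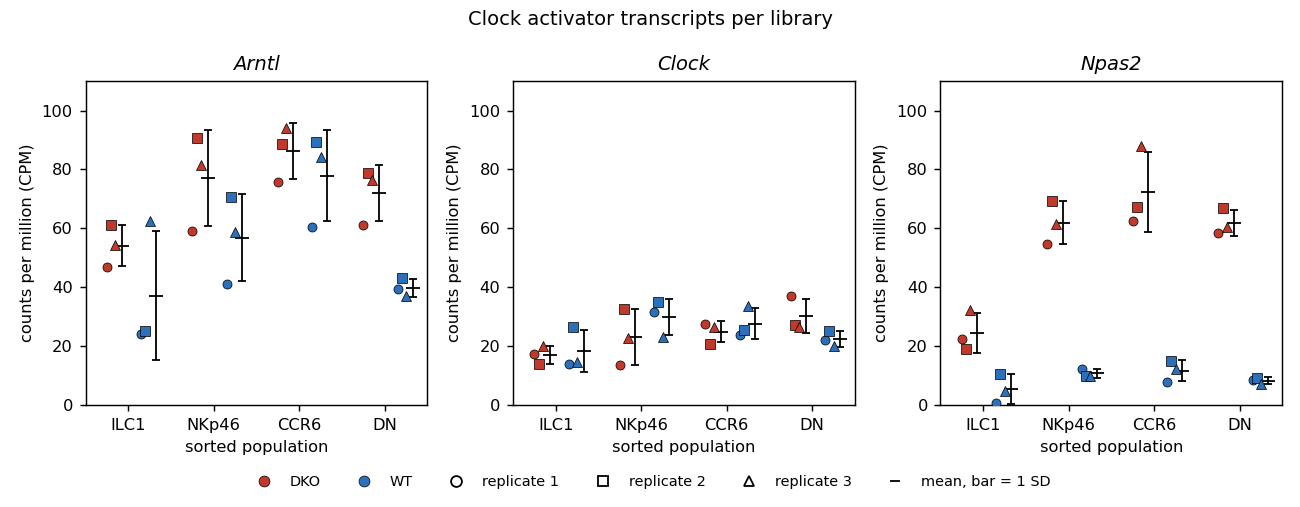
CPM of Arntl, Clock and Npas2 (y axis, linear from 0) in each library of the 4 sorted populations (x axis), with DKO in red left of WT in blue, symbols for replicate numbers, and the mean with 1 SD beside each group. Npas2 lies between 19.2 and 87.95 CPM in the 12 DKO libraries and between 0.774 and 15.2 CPM in the 12 WT libraries, while Clock overlaps between genotypes in 3 of the 4 populations.

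Clock, the usual partner of BMAL1 and a protein with its own acetyltransferase activity, had similar ranges in both genotypes. It had 17.5, 14.0 and 20.0 CPM in DKO ILC1, against 14.1, 26.6 and 14.7 CPM in WT ILC1. In NKp46 cells it had 13.6, 32.7 and 23.0 CPM in DKO and 31.7, 35.0 and 23.2 CPM in WT. In both populations the libraries of the genotypes overlapped. In CCR6 cells it had 27.7, 20.8 and 26.5 CPM in DKO and 24.03, 25.6 and 33.6 CPM in WT, and these overlapped too. In DN cells it had 37.1, 27.4 and 26.5 CPM in DKO and 22.1, 25.3 and 20.0 CPM in WT. DN was the population in which all 3 DKO libraries lay above the 3 WT libraries, as did 11.2% of all tested genes there.

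Clock passed the test in 0 of the 4 populations by edgeR, and 0 passed an unadjusted p under 0.05 or were called by DESeq2 or limma voom. Of all tested genes, 1.06% were called in either direction for ILC1, 4.16% for NKp46, 3.97% for CCR6 and 2.83% for DN. The log2 effect on Clock was -0.10 ± 0.29 for ILC1, -0.38 ± 0.28 for NKp46, -0.15 ± 0.28 for CCR6 and 0.43 ± 0.28 for DN, with adjusted p from 0.57 to 0.94. Their mean was -0.05 ± 0.14 (adjusted p = 0.93), with a 95% interval from -0.34 to 0.25, so a mean change of Clock as large as that of Npas2 lies outside the interval. The spread of the 4 effects from below 0 to above it was not called as a difference among populations (adjusted p = 0.71).

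Arntl, which encodes BMAL1 itself, was higher in DKO on the mean of the 4 populations and in no single one of them by the same test. In ILC1 it had 47.1, 61.1 and 54.4 CPM in DKO, against 24.1, 25.2 and 62.5 CPM in WT. Here 1 WT library exceeded all 3 DKO libraries while the other two lay far below them. In NKp46 cells it had 59.0, 90.6 and 81.6 CPM in DKO and 41.3, 70.5 and 58.8 CPM in WT, with overlap. In CCR6 cells it had 75.8, 88.6 and 94.2 CPM in DKO and 60.4, 89.4 and 84.1 CPM in WT, also with overlap. In DN cells it had 61.1, 78.8 and 76.3 CPM in DKO and 39.6, 43.1 and 37.1 CPM in WT, and the genotypes did not overlap.

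The mean log2 effect on Arntl was 0.49 ± 0.14 (adjusted p = 0.022), a 1.41-fold higher level in DKO with a 95% interval from 0.21 to 0.78 on the log2 scale. On this mean 10.8% of all tested genes were called in either direction, and 4.81% as higher in DKO. The Arntl call held in each of 24 refits without 1 library, where the effect ran from 0.43 to 0.64. By population the log2 effect was 0.54 ± 0.28 for ILC1, 0.44 ± 0.28 for NKp46, 0.14 ± 0.28 for CCR6 and 0.85 ± 0.28 for DN, with adjusted p between 0.127, for DN, and 0.94. That is 0 of 4 called by edgeR and 1 at an unadjusted p under 0.05, namely DN, which DESeq2 (0.87, adjusted p = 0.041) and limma voom (0.85, adjusted p = 0.049) both called. Without the third WT ILC1 library, the highest of its group, the ILC1 effect was 1.14 (adjusted p = 0.0071) and was called, and the DN effect was called too (0.85, adjusted p = 0.013). The effect on Arntl did not pass the test of a difference among populations (adjusted p = 0.79). Beside the DN values, the 7 T cell markers summed to 1246 to 1435 CPM in DKO DN and 2711 to 2820 CPM in WT DN. Of the 7, 6 were called lower in DKO DN, as were 1.34% of all tested genes. The 7 epithelial markers summed to 40.6 to 56.3 CPM in DKO DN and 19.4 to 23.0 CPM in WT DN (1 of 7 called higher). Among them Krt18 averaged 29.9 CPM in DKO DN and 3.19 CPM in WT DN, and Krt8 8.90 and 1.30 CPM. Vil1 was higher too, at 0.210 and 0.122 CPM, while Cdh1 (9.30 and 15.6 CPM), Epcam, Krt19 and Fabp2 were lower in DKO DN. Also set beside them were 6 ILC2 markers, Il1rl1, Gata3, Il13, Il5, Il4 and Areg. They summed to 579 to 827 CPM in DKO DN and 986 to 1294 CPM in WT DN (1 of 6 called lower). The 6 ILC1 and natural killer cell markers summed to 191 to 227 CPM in DKO DN and 286 to 382 CPM in WT DN. Of these 6, 1 was called lower, and Eomes had a higher mean in DKO DN (0.687 against 0.657 CPM). The part of all these markers in the Arntl, Clock and Npas2 values was not tested.

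Arntl2, the BMAL1 paralog, was at the limit of detection in these cells. It had 26 counts over all 24 libraries, 9 in DKO and 17 in WT, with 0 to 5 per library. It had 0 counts in 5 DKO and 2 WT libraries. A count of 0 allows up to 3 counts, which is 0.0353 to 0.241 CPM depending on the library, so both genotypes lie at or near that limit and no fold change is given. Fitted without the filter on low counts, its adjusted p in the 4 genotype comparisons ran from 0.849 to 1. Arntl had 37404 counts in DKO and 32419 in WT, so nearly all reads on the BMAL genes fell on Arntl.

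**Figure D2:**
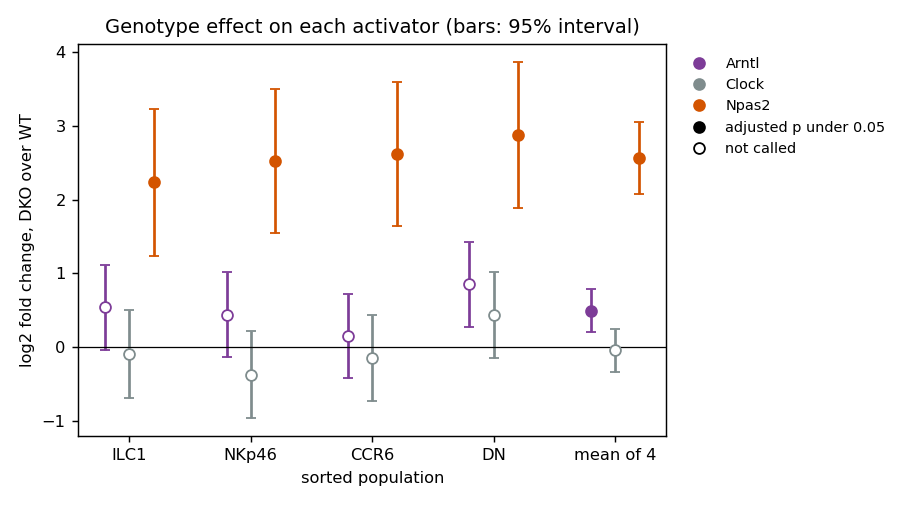
Log2 fold change, DKO over WT (y axis), of Arntl, Clock and Npas2 in each sorted population and as the mean of the 4 (x axis), from edgeR, with 95% intervals as bars and filled points where the adjusted p is under 0.05. Npas2 is filled throughout, Arntl only at the mean (0.49), and the intervals of Clock all include 0.

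Within a genotype, the populations were ordered in a similar way for Arntl and Npas2. In DKO cells, mean Arntl was 86.2 ± 9.44 CPM in CCR6, 77.1 ± 16.3 in NKp46, 72.1 ± 9.57 in DN and 54.2 ± 7.03 in ILC1 (SD, n = 3 each), and no joint difference was called (adjusted p = 0.40). In WT cells it was 78.0 ± 15.4 CPM in CCR6, 56.9 ± 14.7 in NKp46, 39.9 ± 3.01 in DN and 37.3 ± 21.9 in ILC1, and the populations differed (adjusted p = 0.019). In this joint test 11.6% of all genes were called among DKO populations and 19.1% among WT populations. WT ILC1 was lower than WT CCR6, with a log2 difference of -1.06 ± 0.28 (adjusted p = 0.0093; 9.99% of all genes were called lower there), which became -1.66 without the third WT ILC1 library. WT CCR6 was higher than WT DN by 0.97 ± 0.28 (adjusted p = 0.041; 1.95% of all genes were called higher there), a call lost in 12 of 24 refits without 1 library. The WT joint call was itself lost without the second or the third WT CCR6 library (adjusted p = 0.088 and 0.074). Neighbours in the WT order did not pass the test, with an adjusted p of 0.47 for NKp46 against CCR6, 0.45 for NKp46 against DN and 0.895 for ILC1 against DN. A larger Arntl difference between populations in WT than in DKO was not shown, since the joint test of the genotype effect was not passed.

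Mean Npas2 in DKO cells was 72.5 ± 13.6 CPM in CCR6, 62.0 ± 7.30 in NKp46, 61.9 ± 4.45 in DN and 24.6 ± 6.77 in ILC1 (SD, n = 3 each). In WT cells it was 11.8 ± 3.67 CPM in CCR6, 10.8 ± 1.43 in NKp46, 8.42 ± 1.08 in DN and 5.47 ± 5.02 in ILC1. ILC1 had the lowest mean in both genotypes. Its step to the next population, DN, did not pass the test (adjusted p = 0.084 in DKO and 0.42 in WT), and the other neighbours had adjusted p of 0.83 or more. The joint test was passed neither in DKO (adjusted p = 0.10) nor in WT (adjusted p = 0.25). It was passed in both without the second WT ILC1 library (adjusted p = 0.017 in DKO and 0.0096 in WT). In DKO the joint test was also passed without the first WT ILC1 library (adjusted p = 0.0011). All groups share the estimate of spread, so leaving out a WT library can move a DKO test. For the WT test it also changes the WT ILC1 mean, and these parts were not told apart. DKO ILC1 was lower than DKO CCR6, with a log2 difference of -1.56 ± 0.45 (adjusted p = 0.026; 5.88% of all genes were called lower there), a call that 4 of 24 refits without 1 library lost, and so did the fit with no filter on low counts (adjusted p = 0.085). The same WT difference was -1.17 ± 0.47 (adjusted p = 0.084), and -2.04 (adjusted p = 0.0019) without the second WT ILC1 library. That library had the highest Npas2 of its group, 10.8 CPM, beside its myeloid marker sum of 582 CPM, and the part of those markers in its Npas2 value was not tested.

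Mean Clock had no shared order across genotypes. It was 30.3 ± 5.89 CPM in DN, 25.0 ± 3.67 in CCR6, 23.1 ± 9.56 in NKp46 and 17.2 ± 3.03 in ILC1 of DKO mice (SD, n = 3 each). It was 29.98 ± 6.07 CPM in NKp46, 27.7 ± 5.14 in CCR6, 22.5 ± 2.67 in DN and 18.5 ± 7.05 in ILC1 of WT mice. ILC1 again had the lowest mean, and neither joint test was passed (adjusted p = 0.25 in DKO and 0.24 in WT, the WT value being 0.048 without the second WT ILC1 library).

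Levels of different genes were compared per length, as counts per kilobase of annotated exon per M counts (RPKM). Mean Npas2 was 15.1 RPKM in CCR6, 12.9 in NKp46, 12.9 in DN and 5.14 in ILC1 of DKO mice, against 2.47 RPKM in CCR6, 2.26 in NKp46, 1.76 in DN and 1.14 in ILC1 of WT mice. Mean Clock was 1.25 to 2.21 RPKM in the DKO populations and 1.35 to 2.18 RPKM in the WT populations. Mean Arntl was 7.20 to 11.5 RPKM in DKO and 4.95 to 10.4 RPKM in WT. Among 13892 tested protein-coding genes ranked by RPKM within a group, Npas2 stood at percentiles 60.2 to 78.7 in DKO and 35.8 to 46.1 in WT, and Clock at 37.5 to 45.5 in DKO and 37.9 to 44.2 in WT. On this scale Npas2 and Clock stood near each other in WT cells and apart in DKO cells.

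The partner balance within each library showed this without any scaling between libraries. Npas2 made up 78.6 to 92.0% of the Npas2 plus Clock counts per kilobase in the 12 DKO libraries (median 86.7%) and 13.6 to 62.9% in the 12 WT libraries (median 51.4%). The mean share was 80.2 ± 1.81% in DKO ILC1, against 38.7 ± 21.9% in WT ILC1. It was 88.8 ± 3.09% in DKO NKp46, against 51.0 ± 5.46% in WT NKp46. In CCR6 cells it was 89.1 ± 2.18% in DKO and 54.3 ± 7.66% in WT, and in DN cells 85.4 ± 3.08% in DKO and 51.8 ± 1.16% in WT (SD, n = 3 each). No DKO library overlapped a WT library of any population. The log2 ratio of Npas2 to Clock was higher in DKO by 2.77 on the mean of the 4 populations, a 6.81-fold difference (exact permutation test within populations, two-sided, 160000 regroupings, adjusted p = 3.75e-05 over the 3 ratios computed). In each population alone the exact permutation p was 0.1, the smallest that 3 against 3 libraries can give. This ratio is no independent measure of the Npas2 difference, since Npas2 is its numerator.

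Arntl was also set against the sum of its partners, on the same scale. Arntl counts per kilobase were 0.546 to 1.61 times those of Clock plus Npas2 in the DKO libraries (median 0.705) and 0.801 to 3.97 times in the WT libraries (median 2.05). The level of this ratio depends on the length used, with medians of 0.969 in DKO and 2.91 in WT by the median coding transcript in place of the exon union. The log2 ratio of Arntl plus Arntl2 to Clock plus Npas2 was lower in DKO, with a difference of -1.30 on the mean of the populations (exact permutation test, two-sided, adjusted p = 1.31e-04). By population, the DKO minus WT difference was -0.84 in ILC1, where libraries overlapped (exact permutation p = 0.4), and -1.27 in NKp46, -1.77 in CCR6 and -1.32 in DN cells, where they did not (p = 0.1 each). Npas2 is part of the denominator, so this ratio too is no independent measure of the Npas2 difference, and Arntl itself was higher in DKO on the mean of the populations. Shares and ratios of RNA do not give the protein pairs, which were not measured.

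**Figure D3:**
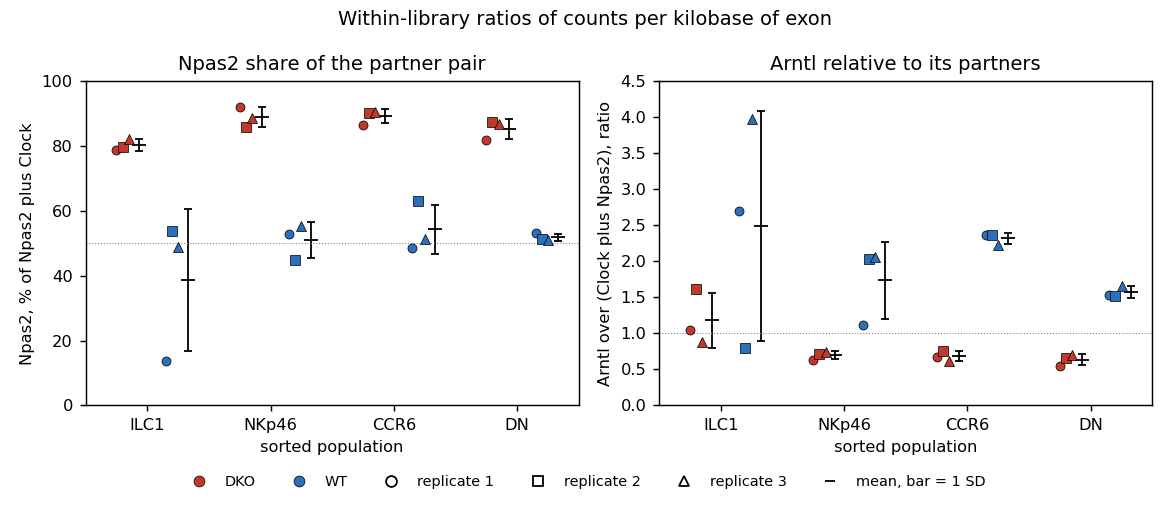
Within-library ratios of counts per kilobase of exon in the 4 sorted populations (x axis), DKO in red left of WT in blue, with the mean and 1 SD beside each group. The left panel gives Npas2 as a percentage of Npas2 plus Clock, with all DKO libraries at 78.6% or more and all WT libraries at 62.9% or less, and the right panel gives Arntl over Clock plus Npas2, with medians of 0.705 in DKO and 2.05 in WT.

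Of 32 other clock genes, all tested, 6 were called higher in DKO ILC1, 9 in DKO NKp46, 11 in DKO CCR6 and 10 in DKO DN cells, while 0.78% of all tested genes were called higher for ILC1, 1.99% for NKp46, 1.93% for CCR6 and 1.49% for DN. The 32 and these counts include both floxed genes. Nr1d1 was called higher in every population, and Nr1d2 in every one but NKp46. The median log2 fold change of the 32 lay between 0.08, in CCR6, and 0.30, in NKp46, and that of all tested genes between -0.04 and 0. On the mean of the populations 13 of the 32 were called higher and 1 lower, against 4.81% and 5.99% of all tested genes. The 13 were 6 of 8 repressors, 2 of 4 REV-ERB and ROR receptors (the floxed Nr1d1 and Nr1d2), all 4 output factors and 1 of 8 kinases and ubiquitin ligases.

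The output factors are transcription factors that pass clock time on to other genes. Dbp, a PAR bZIP activator and a direct target of the BMAL1 pair, averaged 86.4 ± 16.3 CPM in DKO CCR6, against 9.39 ± 5.01 CPM in WT CCR6 (SD, n = 3 each), and its mean log2 effect over the populations was 2.97 ± 0.21 (adjusted p = 7.1e-10). Tef, a related activator, averaged 66.7 ± 19.9 CPM in DKO CCR6 and 7.47 ± 3.10 CPM in WT CCR6, and was called in 3 populations but not in ILC1 (1.28 ± 0.37, adjusted p = 0.115). Nfil3, a repressor that competes with these activators and is needed for ILC development, was called in CCR6 (1.29 ± 0.22, adjusted p = 6.9e-04) and DN cells (1.13 ± 0.22, adjusted p = 0.0033). Hlf, the third PAR bZIP activator, was called in all 4 populations.

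The repressors are mostly inhibitors of the BMAL1 pair. Per3 and Ciart were called higher in all 4 populations. Cry1 was called in NKp46 (0.92 ± 0.26, adjusted p = 0.048), CCR6 (1.58 ± 0.26, adjusted p = 5.5e-04) and DN cells (1.25 ± 0.26, adjusted p = 0.0065). Per2 passed in CCR6 cells (2.80 ± 0.75, adjusted p = 0.034), with 25.7 ± 6.59 CPM in DKO and 3.68 ± 0.659 CPM in WT. It was not called in ILC1 (2.15 ± 0.74, adjusted p = 0.21), NKp46 (1.96 ± 0.73, adjusted p = 0.16) or DN cells (2.698 ± 0.75, adjusted p = 0.057), and was called on the mean of the populations (2.40 ± 0.37, adjusted p = 9.1e-05). Cry2 was called on that mean (0.87 ± 0.21, adjusted p = 0.0068) and in no single population (adjusted p from 0.094 to 0.94). Per1 was not called on the mean of the populations (0.10 ± 0.10, adjusted p = 0.63), nor was Bhlhe40 (-0.03 ± 0.10, adjusted p = 0.95), while its paralog Bhlhe41 was called in NKp46, CCR6 and DN cells.

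Of the 5 ILC3 markers, 3 were called lower in DKO CCR6, 2 in DKO NKp46, 2 in DKO DN and 1 in DKO ILC1, where 2.04% of all tested genes were called lower in CCR6, 2.17% in NKp46, 1.34% in DN and 0.277% in ILC1. Of 8 kinases and ligases, Csnk2a1, a subunit of casein kinase 2, passed on the mean of the populations (0.28 ± 0.09, adjusted p = 0.043). Of 8 coactivators and corepressors, Tbl1xr1, a subunit of the NCoR corepressor complex, passed as lower (-0.44 ± 0.14, adjusted p = 0.046). Both lie close to the threshold, and 1 call among 8 genes is near the 10.8% of all genes called on this mean.

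Of 15 other genes of the bHLH-PAS family, to which all 4 members belong, 9 were tested and 3 were called lower on the mean of the populations. Ahr, the receptor for aryl hydrocarbons, had a mean log2 effect of -0.63 ± 0.13 (adjusted p = 0.0022), and its repressor gene Ahrr one of -1.60 ± 0.27 (adjusted p = 2.4e-04). Epas1, which encodes a hypoxia-inducible factor, had -0.57 ± 0.12 (adjusted p = 0.0020). Arnt, which encodes the common partner of these factors, was not called (0.08 ± 0.11, adjusted p = 0.76). On the same mean 5.99% of all tested genes were called lower.

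**Figure D4:**
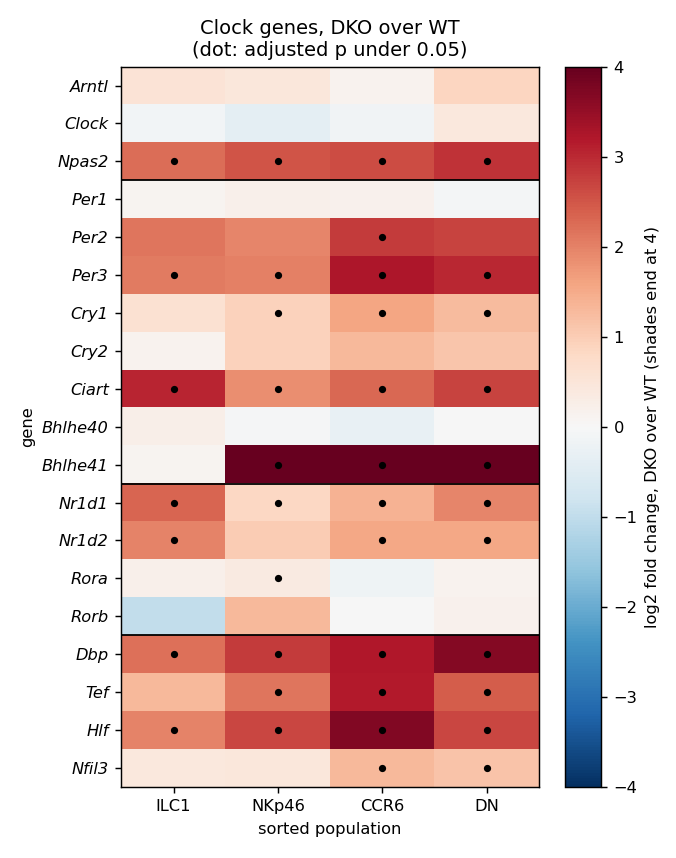
Log2 fold change, DKO over WT, from edgeR, of the 3 tested activators and of 16 other clock genes (rows) in the 4 sorted populations (columns), with shades ending at 4 and a dot where the adjusted p is under 0.05. Npas2 has a dot in every column, as have Per3, Ciart, Dbp, Hlf and the floxed gene Nr1d1, all higher in DKO, while Arntl and Clock have none.

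The genes most like each member were named by Pearson correlation of log2 CPM over the 24 libraries, among 8903 genes. For Npas2 they were Rnf144b (r = 0.98), Ssx2ip (0.97), Thra (0.94), Itsn1 (0.93) and Rsad1 (0.93). Thra is the antisense neighbour of the floxed gene Nr1d1, and the strand setting of the counts is not given. The part of Nr1d1 reads in the Thra counts was not tested. Part of such an r is the genotype difference itself, and within the 12 DKO and the 12 WT libraries it was 0.92 and 0.95 for Rnf144b, but 0.54 and 0.87 for Rsad1. For Arntl they were Washc4 (0.86), Mgme1 (0.85), Frmd6 (0.85), Fam184b (0.84) and Sh3bp5 (0.84). For Mgme1 it was 0.23 over the DKO libraries and 0.97 over the WT libraries. For Clock the values were lower, with Phactr4 and Tada2a at 0.75, Kat6b and Pi4k2a at 0.73 and Hhat at 0.72. Between members, r over the 24 libraries was 0.70 for Arntl and Npas2, 0.33 for Arntl and Clock and 0.32 for Clock and Npas2. Within the 12 DKO and the 12 WT libraries it was 0.81 and 0.54 for Arntl and Npas2, 0.51 and 0.41 for Arntl and Clock, and 0.65 and 0.78 for Clock and Npas2. All these points share libraries, sorted populations and depth, and the values are descriptions.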

How the data were processed

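Per the labels' protocols, 10 ng of RNA per sample went into a low-input SMARTer kit, with no molecular identifiers named. The build is mm10 per the submitters' processing notes, which list, among other tools, featureCounts 2.0.3 and STAR 2.7.9a, without saying which made the table. The authors deposited raw read counts per gene. The sources used here do not give the strand setting, the rule for multi-mapping reads or the annotation. Of 55774 rows, 455 shared 168 IDs, and 1 row per ID was kept. There were 0 unused value columns.

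Counts were scaled by TMM, filtered by group and fitted with edgeR 4.0.16 (R 4.3.3) over 24 libraries with 1 mean per group (16 residual degrees of freedom, common biological coefficient of variation 0.573). P-values were adjusted by Benjamini-Hochberg over all 21286 genes. The code was tried on simulated counts with independent libraries and the same spread for all genes, a simpler case than these data. Lengths are unions of GENCODE M21 exons. Ratios had 0.5 counts added and were tested by exact permutation. Alternatives were limma 3.58.1 (voom), DESeq2 1.42.0, other scaling, no filter, blocks and left-out libraries. No library pair agreed within counting noise (lowest chi-square per degree of freedom 34.9). The members and lists were chosen with earlier results of these data known. By rule the text names the members, up to 5 called list genes per population by adjusted p and the 5 most correlated genes per member. Tef in other populations, Cry1, Nfil3, Cry2, Per1, Per2, Bhlhe40, Csnk2a1, Tbl1xr1, Ahr, Ahrr, Epas1 and Arnt were named after their values were seen. Results of some genes that the lists and markers were to hold are not reported here.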

Additional observations from a re-analysis of the deposited data

How the results depend on the processing

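Each main result was recomputed under the alternative settings. Of the recomputed values, 1044 kept their direction and their side of the threshold, or for counts of called genes stayed within 1.5-fold. Of the rest, 14 newly passed, 6 no longer passed, 7 changed direction and 4 counts moved further. The exceptions follow, and their cause was not tested. Arntl in DN cells, not called in the main model (0.85), was called with no filter (0.90), limma voom (0.85), DESeq2 (0.87), the replicate block (0.83), the 2 groups alone (0.88) and without the third WT ILC1 library (0.85, adjusted p = 0.013), and ran from 0.78 to 0.96 without single libraries. Npas2 in ILC1 was 2.18 and not called in the 2 groups alone, and ran from 1.73 to 3.09 without single libraries. Clock in ILC1 turned to 0.089 with limma voom and ran from -0.24 to 0.25 without single libraries. Without single libraries Arntl ran from 0.31 to 1.14 in ILC1 and from -0.0092 to 0.25 in CCR6, Clock from -0.24 to 0.011 in CCR6 and from -0.13 to 0.034 on the mean (also above 0, at 0.020, without the first DKO NKp46 library). The joint F over WT populations ran from 4.28 to 20.3 for Arntl, 1.48 to 4.97 for Clock and 1.60 to 7.79 for Npas2, and for Npas2 over DKO populations from 2.49 to 13.2. For Npas2, limma voom gave an F of 5.70 in WT (adjusted p = 0.027) and 13.3 in DKO (adjusted p = 6.3e-04), and DESeq2 a statistic of 4.08 in DKO (adjusted p = 0.039); these passed. Of the other clock genes, those called higher in ILC1 fell to 1 in the 2 groups alone. Those called lower in ILC1, 0 by edgeR, were 1 with DESeq2 and 0 to 1 without single libraries.

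Replicate numbers are shared between groups, but the labels do not say that a number marks an animal or a day. For that reason the numbers were not taken as pairs. DKO and WT libraries of 1 population and number correlated in their deviations at -0.007 to 0.287, over 0.1 in 7 of 12 pairs (median 0.132), against 2 of 24 pairs of different numbers (median -0.049). Deviations are from the mean of 3 libraries, so values for the same and for different numbers are not independent. Where genotype and population both differed, 8 of 36 pairs of 1 number (median 0.0145) and 8 of 72 of different numbers (median -0.0049) were over 0.1. Within a genotype, libraries of 1 number from different populations correlated over 0.1 in 18 of 36 pairs (median 0.097), against 4 of 72 of different numbers (median -0.034), while the main tests treat all libraries as independent. With whole numbered sets permuted as units (20 regroupings, smallest p 0.1), the ratio differences of 2.77 and -1.30 had an exact permutation adjusted p of 0.15, which that design cannot bring under 0.05. The Arntl2 to Arntl ratio is not given, since Arntl2 lay at the detection limit. A kilobase from the median coding transcript in place of the exon union was added after seeing the data, and gave -1.35 for the Arntl ratio.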
